A study of Mus musculus with 24 samples.

Results

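The proteasome genes were followed through 24 bulk RNA libraries of sorted mouse memory B cells. Members were the rows of the count table whose symbol starts with Psma to Psmg followed by a digit, which gave 38 of 18470 rows. Of these, 33 encode subunits, assembly chaperones, an activator or an inhibitor, and 5 others are pseudogenes, Psme2b or Psmc3ip. A filter on low counts left 34 members and 6779 genes in all for testing. The 4 members it removed were Psma8, the alpha subunit of testis proteasomes, with 2 counts in 1 library, and the pseudogenes Psma5-ps, Psmb5-ps and Psmb7-ps2. Rows for the subunits Psma2, Psma4, Psmb5, Psmb8, Psmc1, Psmc4, Psmd6, Psmd7 and Psmd13 and for the activator subunits Psme1 and Psme2 are not analysed here. 

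Airway allergy was set up with intranasal house dust mite extract, and a second exposure 6 weeks later called up the memory response. SCAP cKO mice (genotype SCAP fl/fl hCD20-TamCre) lost SCAP, the escort protein of the SREBP lipid regulators, before that recall. WT mice (SCAP +/+ hCD20-TamCre) carried the same Cre, named for CD20, a B cell gene, and for tamoxifen, so all groups share it. Memory B cells (csMBC in the labels) of both genotypes were sorted into CCR6+CD69+ and CCR6-CD69- cells from the lung and into circulating cells. Each of the 6 groups had 4 libraries, 2 in each of the 2 batches that the labels name. The labels name lung as tissue for all 24 libraries, the circulating ones included, give no age and do not say whether replicates were separate animals. P-values therefore measure only the spread between these samples, which may be technical.

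Library totals ran from 129025 to 8566243 counts. The smallest library, SCAP cKO CCR6-CD69- replicate 4, stood apart, with 7 of the 34 tested members detected and 150 member counts in all; 3 counts in it equal 23.3 CPM (the library's counts scaled to a total of 1e+06). WT circulating replicate 2 had 356782 counts. Of 12 B cell markers 5 had rows, and their summed level was 3947 to 5558 CPM in SCAP cKO and 3609 to 4723 CPM in WT CCR6+CD69+ libraries, 2027 to 4562 CPM in SCAP cKO and 3149.6 to 4714 CPM in WT CCR6-CD69- libraries, and 1491 to 3127 CPM in SCAP cKO and 1572 to 3173 CPM in WT circulating libraries. Ms4a1 and Pax5 had counts in every library, and Cr2 was at 0 in 3 circulating ones. Scap, counted over its whole gene, ranged from 0 to 446 CPM in libraries labelled SCAP cKO and from 0 to 203 CPM in WT libraries, with 1 library at 0 in each (log2 fold change 0.27 ± 0.55 over the populations, SE, edgeR adjusted p = 0.991). The labels do not say which exons were deleted, so this level does not check the genotype. Values from bulk samples cannot tell fewer cells of a type from less RNA per cell.

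The proteasome is the protease of the cytosol and nucleus that degrades ubiquitin-tagged proteins. Its 20S core is a barrel of alpha rings, which gate entry, and beta rings, which hold the proteolytic sites; the 19S cap binds ubiquitin chains and unfolds substrates with a ring of ATPases. In immune cells the interferon-inducible subunits Psmb8, Psmb9 and Psmb10 take the places of the constitutive catalytic subunits and shape the peptides offered on MHC class I. B cells carry such immunoproteasomes, and the heavy protein synthesis of antibody-secreting cells makes them sensitive to proteasome inhibitors.

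The members were present at unequal levels. Over the 4 WT CCR6+CD69+ libraries, levels were compared per kilobase of transcript, as median CPM per kilobase. The highest was Psmb9 at 203, followed by the structural beta subunits Psmb1 at 179 and Psmb4 at 160, the cap subunit Psmd8 at 156 and the alpha subunit Psma7 at 153. The ranges over the 4 libraries overlapped among these 5, so their order is not fixed by the data. The 13 tested core subunits lay between 38.6 (Psma3) and 203, and the highest and lowest of the 12 cap subunits were Psmd8 and Psmd11. The value of Psma3 rests on a transcript length of 2846 nt, beside 914 to 1239 nt for the other tested alpha subunits. The 5 assembly chaperones, which help build the particle and are not part of the finished one, were lower, from 4.60 (Psmd5) to 25.2 (Psmd10). Psme3, the subunit of a nuclear activator that works without ubiquitin, was at 53.1, and Psmf1, which encodes the inhibitor PI31, at 13.4. Psmc3ip, which the symbol rule takes but which encodes a meiotic recombination protein, was at 2.62. Psme2b, a near-identical copy of Psme2, was at 39.4; its reads cannot be assigned with certainty to it.

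**Figure D1:**
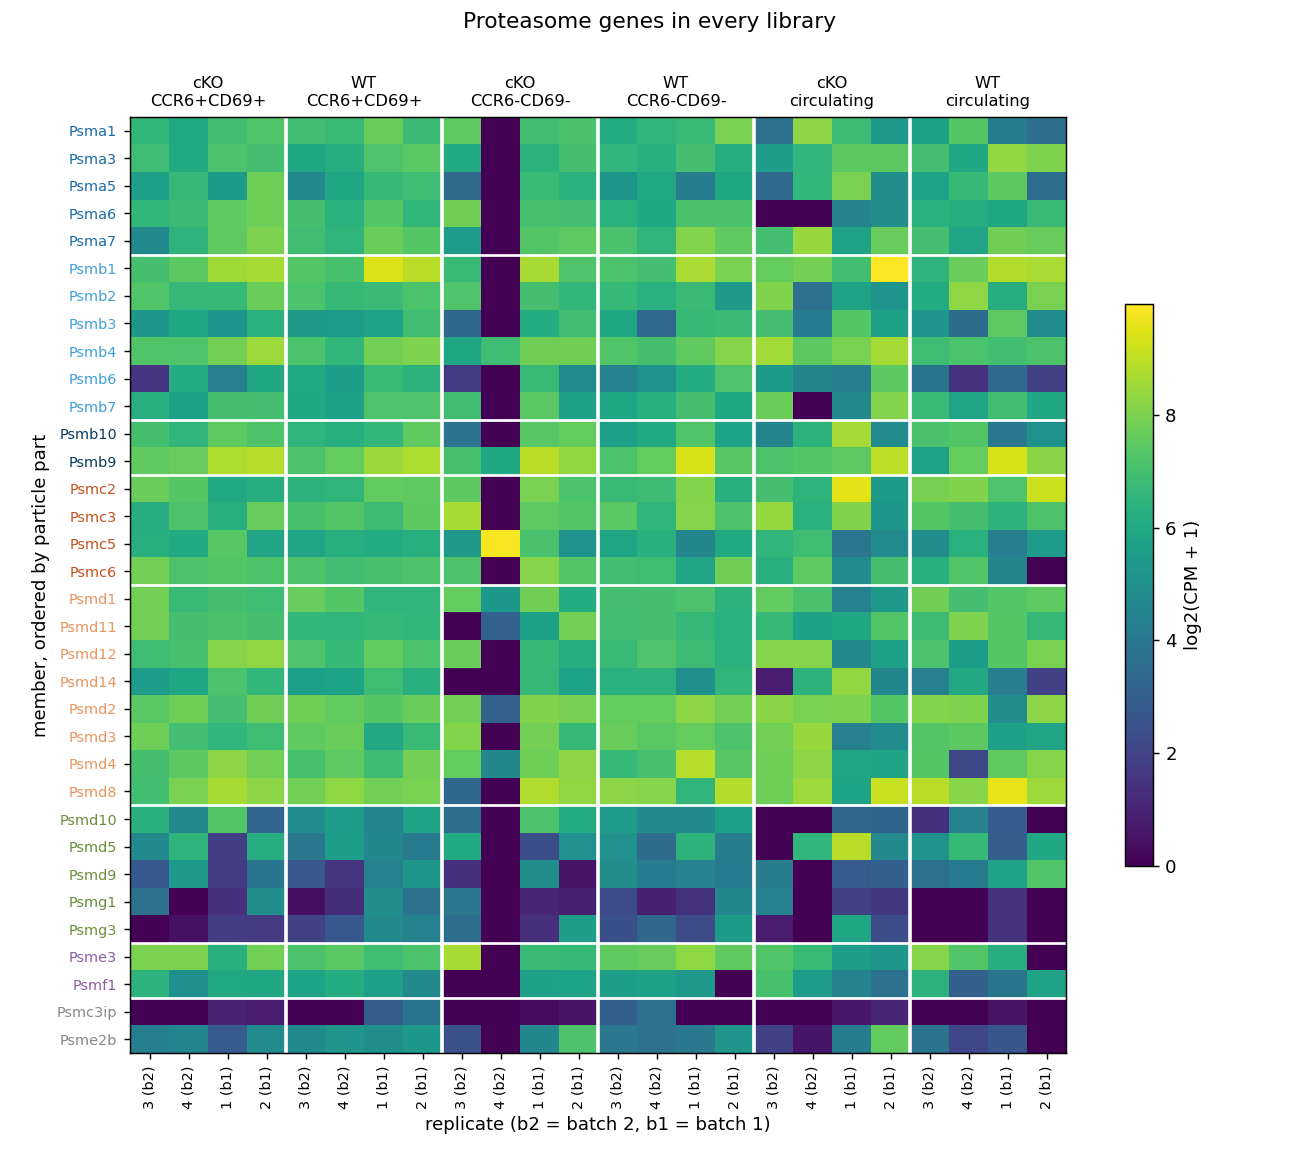
The heat map gives log2(CPM + 1) of the 34 tested members in every library. Rows run by particle part (blue names, 20S core; orange, 19S cap; green, assembly chaperones; purple, Psme3 and Psmf1; grey, other rows), and columns by group, with SCAP cKO left of WT and batch 2 (b2) left of batch 1 (b1). SCAP cKO CCR6-CD69- replicate 4 is at 0 for most members, and the assembly chaperones are the darkest rows of the particle's genes.

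The only comparison in which members passed the test was that between the labelled batches. Batch 2 against batch 1, with group held in the fit (edgeR quasi-likelihood test, Benjamini-Hochberg adjustment over all genes tested), 30 of 34 tested members had a negative log2 fold change. Of these, 5 fell past an adjusted p of 0.05, namely Psmb1, Psmb9, Psma7, Psma3 and Psmg3, against 6.99% of all genes tested that fell. No member rose, against 0.826% of all genes. At an unadjusted p below 0.05 there were 14 members (41.2%), against 19.8% of all genes, and DESeq2 called 10 (29.4%), against 16% of all genes. The members' median was -1.20 on the log2 scale, beside -0.39 for all genes tested, so most genes tested were also negative. Batch 2 libraries spent 0.116 to 0.407% of their counts on the members, against 0.403 to 0.527% for batch 1 libraries. The 0.116% is that of the smallest library, SCAP cKO CCR6-CD69- replicate 4, and the other batch 2 libraries were at 0.310% or more.

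Psmb1 encodes a beta-ring subunit without a proteolytic site of its own. In CCR6+CD69+ cells it had 129 and 177 CPM in batch 2 against 373 and 403 CPM in batch 1 of SCAP cKO, and 155 and 132 CPM in batch 2 against 702 and 474 CPM in batch 1 of WT. In CCR6-CD69- cells it had 105 and 0 CPM in batch 2 against 404 and 147 CPM in batch 1 of SCAP cKO, and 140.1 and 126 CPM in batch 2 against 414 and 247 CPM in batch 1 of WT. In circulating cells it had 192 and 238 CPM in batch 2 against 124 and 1000.4 CPM in batch 1 of SCAP cKO, and 88.4 and 204 CPM in batch 2 against 450.3 and 415 CPM in batch 1 of WT. The batches did not overlap in 5 of 6 groups, and SCAP cKO circulating was the exception. The log2 fold change of Psmb1 was -2.07 ± 0.38 (SE, adjusted p = 5.49e-05). The called members are described because they passed the test on these same libraries, so separation of the batches within groups is partly built in. The share of all genes that separate in as many groups was not counted.

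Psmb9, the interferon-inducible subunit that replaces Psmb6, was likewise lower in batch 2. CCR6+CD69+ libraries of SCAP cKO held 186 and 199 CPM in batch 2 against 425 and 467 CPM in batch 1, and those of WT 146 and 193 CPM in batch 2 against 356 and 431 CPM in batch 1. CCR6-CD69- libraries of SCAP cKO held 132 and 62.0 CPM in batch 2 against 487 and 325 CPM in batch 1, and those of WT 141 and 196 CPM in batch 2 against 666 and 163 CPM in batch 1. Circulating libraries of SCAP cKO held 144 and 155 CPM in batch 2 against 178 and 505 CPM in batch 1, and those of WT 52.3 and 195 CPM in batch 2 against 659.8 and 291 CPM in batch 1. The only group in which the batches overlapped was WT CCR6-CD69-. The log2 fold change was -1.93 ± 0.36 (SE, adjusted p = 8.08e-05).

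Psma7 and Psma3 are alpha-ring subunits. Psma7 had 0 to 89.2 CPM in batch 2 against 157 to 258 CPM in batch 1 over the SCAP cKO lung libraries, and 90.1 to 135 CPM in batch 2 against 160.4 to 279.7 CPM in batch 1 over the WT lung libraries. In circulating cells it had 125 and 342 CPM in batch 2 against 52.6 and 199 CPM in batch 1 of SCAP cKO, and 124 and 55.8 CPM in batch 2 against 220.1 and 202 CPM in batch 1 of WT. In SCAP cKO circulating cells the mean was higher in batch 2 and the batches overlapped; the other 5 groups had no overlap. The log2 fold change of Psma7 was -1.56 ± 0.50 (SE, adjusted p = 0.0384).

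Psma3 had 0 to 117 CPM in batch 2 against 86.8 to 142 CPM in batch 1 over the SCAP cKO lung libraries, and 59.9 to 92.6 CPM in batch 2 against 73.5 to 170.4 CPM in batch 1 over the WT lung libraries. In circulating cells it had 45.7 and 94.6 CPM in batch 2 against 175 and 174 CPM in batch 1 of SCAP cKO, and 126 and 60.2 CPM in batch 2 against 328 and 261 CPM in batch 1 of WT. Within groups, the batches overlapped in WT CCR6-CD69- alone. The log2 fold change of Psma3 was -1.54 ± 0.50 (SE, adjusted p = 0.0428).

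**Figure D2:**
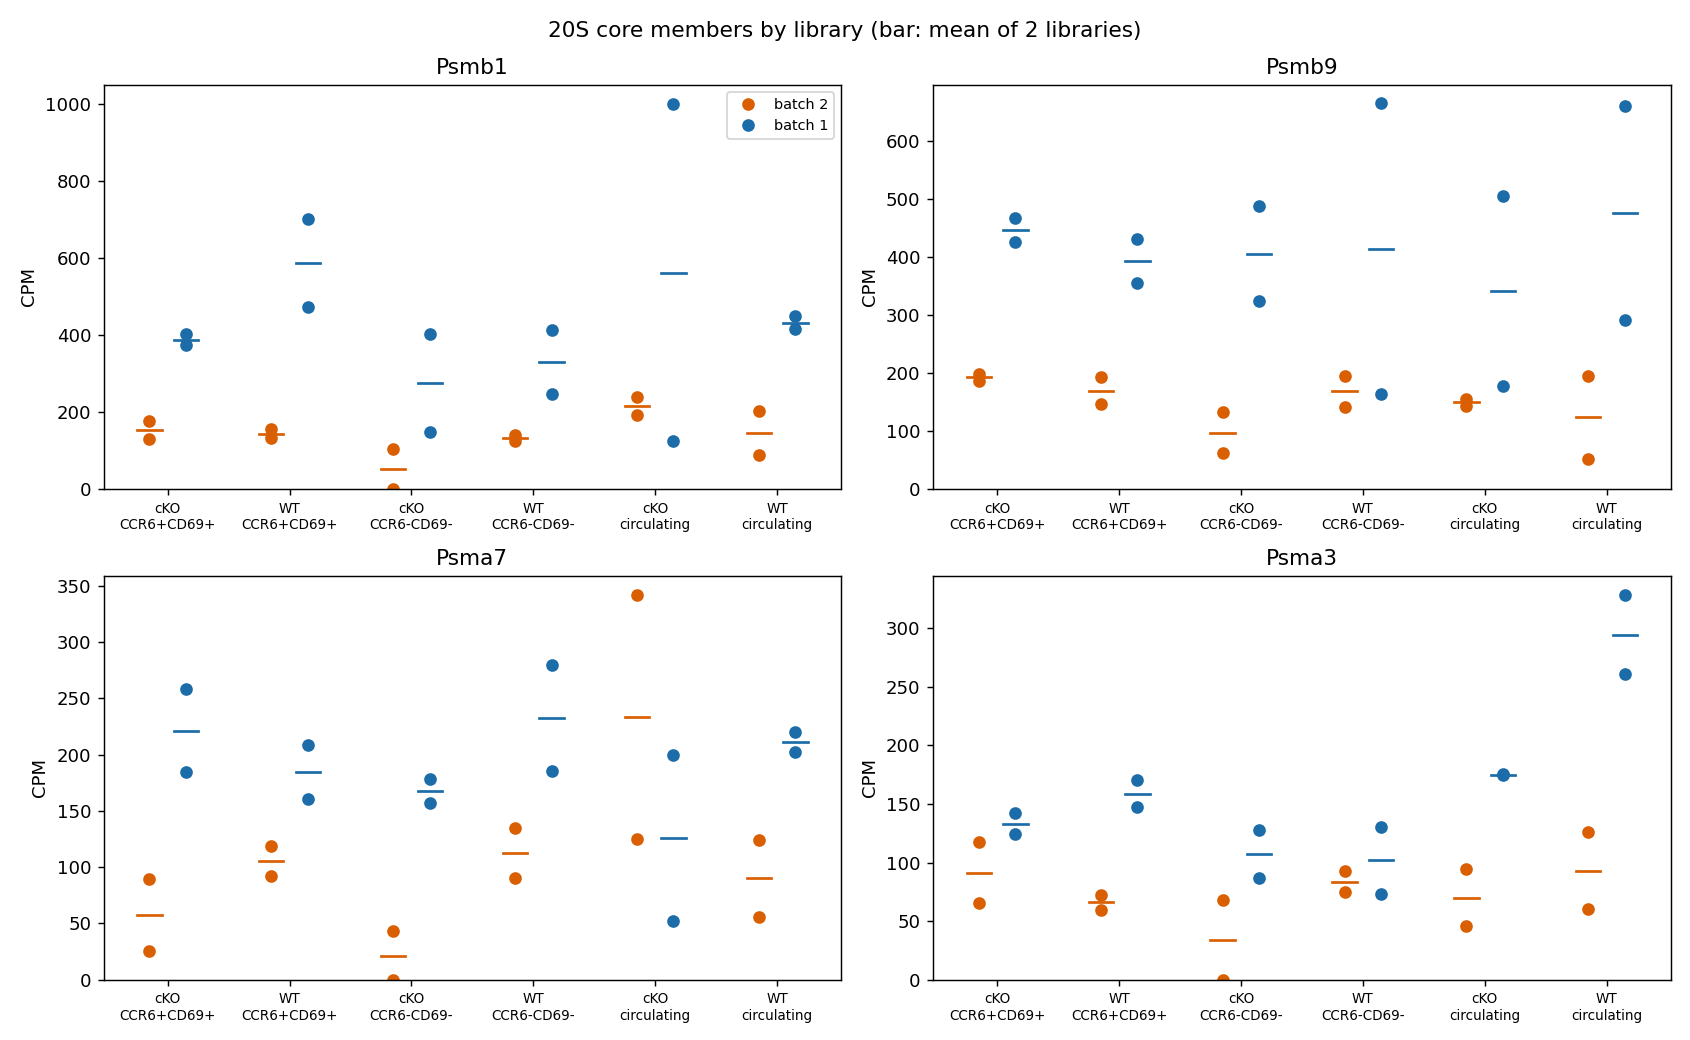
The 4 panels plot CPM of Psmb1, Psmb9, Psma7 and Psma3 in each library by group, with SCAP cKO left of WT and batch 2 (orange) left of batch 1 (blue); points are libraries and bars the mean of 2. Batch 2 points sit below batch 1 points in 5 of 6 groups in every panel. These members were picked because they passed the test between batches.

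Psmg3 encodes an assembly chaperone of the alpha ring and was sparse, at 0 counts in 6 of 24 libraries. It had 0 to 11.3 CPM in batch 2 against 0 to 59.2 CPM in batch 1 over all groups. The mean was lower in batch 2 in 6 of 6 groups, without overlap in 3. The log2 fold change was -3.41 ± 1.12 (SE, adjusted p = 0.0445). Without SCAP cKO CCR6-CD69- replicate 4, Psmb1, Psmb9, Psma7 and Psma3 still passed the test and Psmg3 did not (adjusted p = 0.055). Only Psmb1 and Psmb9 passed whichever of the 24 libraries was left out.

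Read by part, all 13 tested core subunits had a negative log2 fold change between batches, as had most genes tested. Core members lay between -2.07 (Psmb1) and -0.19 (Psmb2), with a median of -1.54. Among those that did not pass the test were Psmb3 at -1.98 (adjusted p = 0.0535) and Psmb4 at -1.12 (adjusted p = 0.0554), both beta-ring subunits. The catalytic subunits Psmb6 and Psmb7 and the interferon-inducible Psmb10 had log2 fold changes of -1.76 ± 0.79, -1.18 ± 0.60 and -1.41 ± 0.66 (SE), with adjusted p of 0.188, 0.263 and 0.214. The 12 cap subunits had a median of -0.40, close to the -0.39 of all genes, and none was called. They spread from -1.44 for Psmd14, the deubiquitinase of the cap, to 0.73 for Psmd3, a lid subunit. In the ATPase ring, which unfolds the substrate, Psmc2 was at -1.07 and Psmc5 at 0.57. The 5 assembly chaperones were all negative, with a median of -1.52. Psme3 was at 0.47 and Psmf1 at -0.02.

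**Figure D3:**
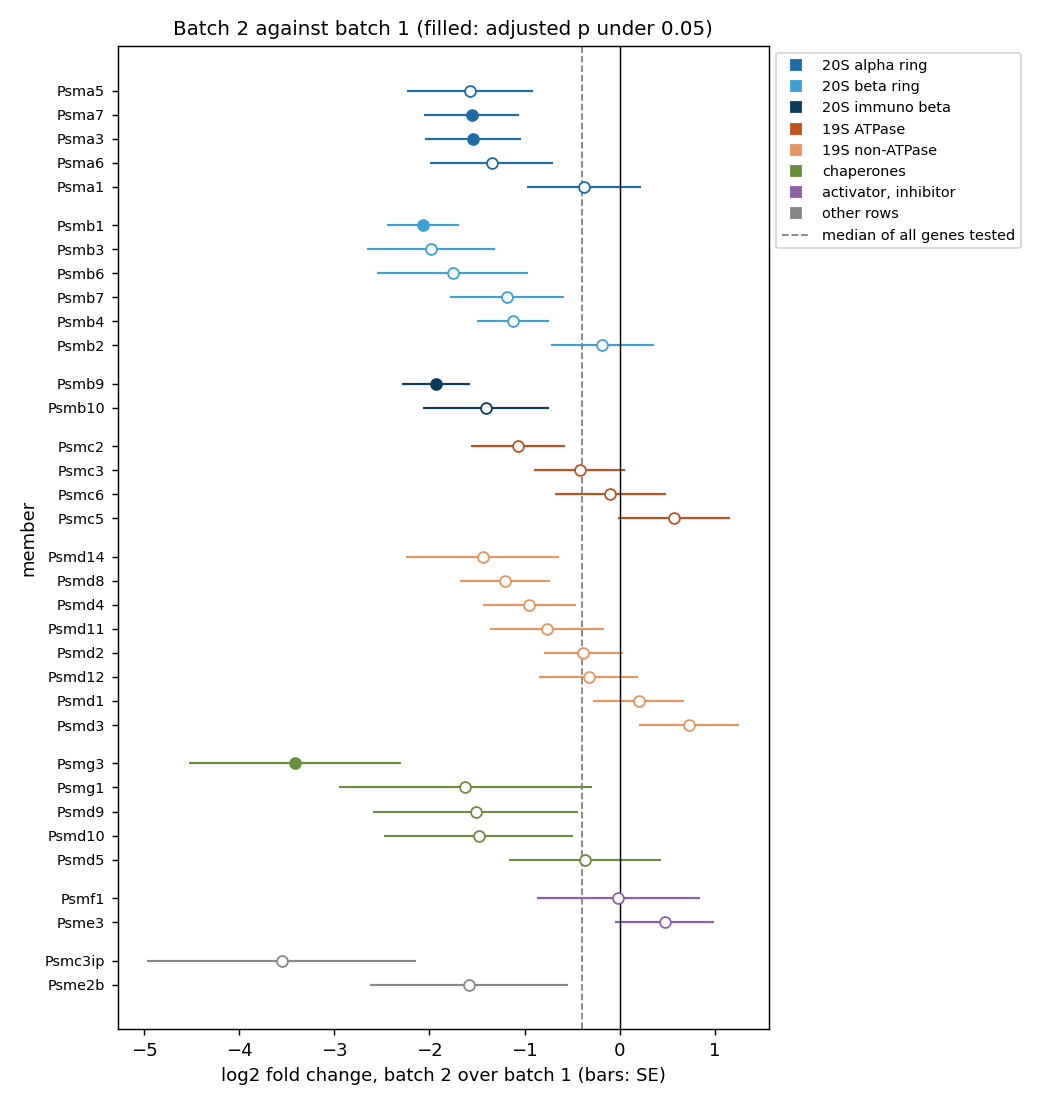
Points give each tested member's log2 fold change of batch 2 over batch 1 with its SE, grouped by part; filled points passed the adjusted p of 0.05 and the dashed line is the median of all genes tested, -0.39. The core members (blues) all lie left of 0, between -2.07 and -0.19, while the cap members (oranges) spread from -1.44 to 0.73.

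Summed over subunits, the core also separated the batches inside every group. In CCR6+CD69+ cells the core summed to 1249.5 and 1326 CPM in batch 2 against 2168 and 2827 CPM in batch 1 of SCAP cKO, and to 1295 and 1149 CPM in batch 2 against 2632 and 2490.2 CPM in batch 1 of WT. In CCR6-CD69- cells the sums were 1108 and 178 CPM in batch 2 against 2361 and 1842 CPM in batch 1 of SCAP cKO, and 1133 and 1097 CPM in batch 2 against 2495 and 1819 CPM in batch 1 of WT. In circulating cells they were 1580.3 and 1532 CPM in batch 2 against 1816 and 2936 CPM in batch 1 of SCAP cKO, and 1054 and 1523 CPM in batch 2 against 2432 and 1813 CPM in batch 1 of WT. Both batch 2 libraries were below both batch 1 libraries in 6 of 6 groups. For the cap this held in 2 of 6 groups, and its sum was 984 to 2279 CPM in batch 2 and 1297 to 2486 CPM in batch 1. The core sum includes called members, and how many other gene sets separate in this way was not counted. The log2 ratio of core to cap was -0.72 ± 0.58 in batch 2 and 0.26 ± 0.43 in batch 1 (SD, n = 12 libraries each). In batch 2, SCAP cKO CCR6-CD69- replicate 4, the smallest library, was at -2.47. The other batch 2 libraries ran from -0.98 to -0.29.

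Transcript length moved with the same factor. Over the 6578 tested genes with a GENCODE transcript length, the median log2 fold change of batch 2 over batch 1 was -2.37 below 1000 nt, -1.16 from 1000 to 2000 nt, -0.39 from 2000 to 4000 nt and 0.11 at 4000 nt or more. The members had -1.67 (6 members), -1.28 (18 members), -0.10 (9 members) and -0.37 (1 member) in those 4 classes. The core transcripts had a median length of 1183 nt and the cap transcripts of 1844.5 nt. Spearman's rho between length and batch log2 fold change was 0.48 over the genes and 0.54 over the 34 members, as a description across genes that share the same libraries. Ribosomal protein genes, which have short transcripts, took 2.93 to 4.20% of all counts in the batch 2 libraries, against 8.83 to 14.4% in those of batch 1. The part of transcript length in the members' batch difference was not tested.

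**Figure D4:**
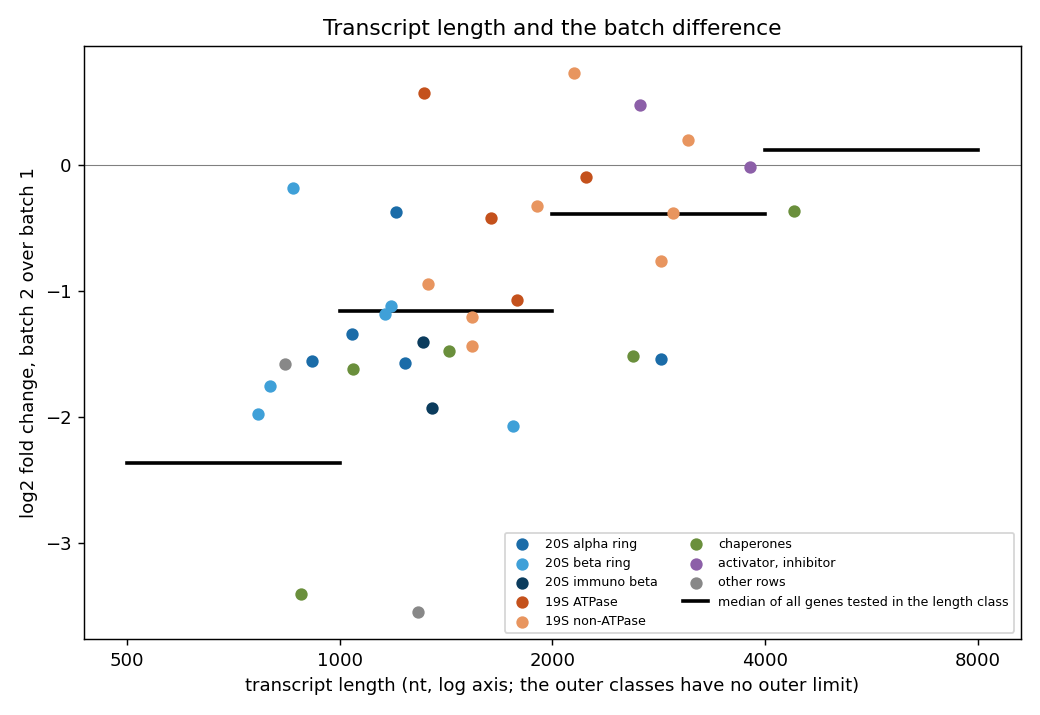
Each point is a tested member, placed by transcript length (nt, log axis) and log2 fold change of batch 2 over batch 1 and coloured by part; black bars are the median of all tested genes in 4 length classes. The bars climb from -2.37 below 1000 nt to 0.11 at 4000 nt or more, and the core members (blues) other than Psma3 lie between 766 and 1758 nt.

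Partners of the particle whose symbols the rule does not take, from a list of 12 genes, had 8 rows, and 2 fell in batch 2. Pomp, the chaperone that matures the core, had a log2 fold change of -2.05 ± 0.54 (SE, adjusted p = 0.00756), and Sem1, a small cap subunit, one of -3.06 ± 0.55 (SE, adjusted p = 0.00018). Adrm1, a ubiquitin receptor of the cap, was at -1.06 (adjusted p = 0.240). Ubb, which encodes ubiquitin, fell by 1.07 on the log2 scale (adjusted p = 0.00122). None of 6 genes of proteasome gene transcription and none of 7 of the p97 segregase and ubiquitin shuttles was called. Of 5 MHC class I peptide-loading genes, H2-D1 fell by 1.12 (adjusted p = 1.05e-06), and Tap1, a peptide transporter, was at -0.41 (adjusted p = 0.502). Of 5 inducers of the immunoproteasome none was called.

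Promoter sequences are shown for the called core subunits that have an entry in the RefSeq promoter table (build GRCm38.p6). Each runs from 250 bases before to 50 bases after the start, on the gene's strand. Psmb1 has no entry. These subunits were chosen because they were called between batches, and the part of promoters in that difference was not tested. Capitals mark CCAAT, the box bound by NF-Y, or its reverse complement.
Psmb9 (chr17:34187281-34187580, minus strand): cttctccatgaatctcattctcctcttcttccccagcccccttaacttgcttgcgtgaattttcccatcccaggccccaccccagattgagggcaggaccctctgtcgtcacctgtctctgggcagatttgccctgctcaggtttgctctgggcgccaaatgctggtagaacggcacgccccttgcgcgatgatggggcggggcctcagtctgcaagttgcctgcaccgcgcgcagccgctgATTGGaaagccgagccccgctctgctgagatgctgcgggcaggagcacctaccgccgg
Psma7 (chr2:180042415-180042714, minus strand): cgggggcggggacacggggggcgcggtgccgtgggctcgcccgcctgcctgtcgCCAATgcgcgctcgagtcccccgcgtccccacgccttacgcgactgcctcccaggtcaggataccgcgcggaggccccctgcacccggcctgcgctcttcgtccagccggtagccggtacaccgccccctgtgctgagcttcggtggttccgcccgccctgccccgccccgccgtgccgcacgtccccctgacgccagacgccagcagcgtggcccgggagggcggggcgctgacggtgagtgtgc
Psma3 (chr12:70974373-70974672, plus strand): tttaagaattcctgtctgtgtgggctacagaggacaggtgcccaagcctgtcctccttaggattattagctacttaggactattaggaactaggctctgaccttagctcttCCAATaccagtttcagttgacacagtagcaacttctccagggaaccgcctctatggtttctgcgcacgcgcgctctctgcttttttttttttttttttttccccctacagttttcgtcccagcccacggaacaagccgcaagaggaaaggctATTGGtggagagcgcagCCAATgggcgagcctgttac
On either strand, CCAAT was found in 12 of 29 member promoters, beside 37.9% of 27025 promoters. TGACNNNGC, the letters of an antioxidant element that NFE2L1 can bind, was in 4 of 29 beside 12.5%. TTCNNNGAA, the STAT-type element, was in 2 of 29 beside 8.47%, and GAAANNGAA, an interferon-type element, in 4 of 29 beside 8.57%. These shares describe letters in a window and show no binding.

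Between groups, no member was called in any of the 15 comparisons, and the members' spread within groups was wide. With batch in the fit, CCR6+CD69+ against CCR6-CD69- cells, 0 of 34 members passed in SCAP cKO (0.457% of all genes tested were called) and 0 in WT (0.295%). CCR6+CD69+ against circulating cells, 0 members passed in SCAP cKO (1.53%) and 0 in WT (1.18%). CCR6-CD69- against circulating cells, 0 members passed in SCAP cKO (0.31%) and 0 in WT (0.177%). Averaged over genotypes, where 1.45%, 4.87% and 1.56% of all genes were called in those 3 comparisons, the members called were again 0. At an unadjusted p below 0.05, CCR6+CD69+ against CCR6-CD69- cells gave 1 member in SCAP cKO (11.8% of all genes), 0 in WT (3.33%) and 0 on average (9.79%). CCR6+CD69+ against circulating cells gave 2 in SCAP cKO (12.8%), 2 in WT (11.6%) and 2 on average (17.3%). CCR6-CD69- against circulating cells gave 5 in SCAP cKO (14.2%), 2 in WT (8.63%) and 4 on average (14.5%). The 5 members are 14.7% of 34, near the share of all genes in that comparison, and the members' shares in the other 8 were below those of all genes. DESeq2 called 0 members in the first of these comparisons (all genes 5.04% in SCAP cKO, 0.797% in WT, 3.82% on average). In the second it called 2 in SCAP cKO (7.2%), 1 in WT (4.13%) and 2 on average (10.6%), and in the third 3 in SCAP cKO (7.67%), 0 in WT (1.92%) and 2 on average (7.18%). The highest of these shares, 8.82% of the members, was near the 7.67% of all genes.

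In lung CCR6+CD69+ against lung CCR6-CD69- cells, averaged over genotypes, the 13 core members all had positive log2 fold changes, from 0.06 (Psma1) to 0.86 (Psma5), with a median of 0.43. The 12 cap members split evenly, 6 higher and 6 lower, with a median of 0.03, and all genes had a median of 0.14. Within SCAP cKO the core median was 0.60 and within WT 0.18, beside all-gene medians of 0.26 and -0.02. No single member exceeded its error by enough to be called, the smallest adjusted p being 0.578 (Psmg3). In batch 2 alone the median of the 34 members was 0.56, beside 0.52 for all genes, and in batch 1 alone 0.01, beside 0.04. SCAP cKO CCR6-CD69- replicate 4, at 0 for most members, is 1 of 2 batch 2 libraries of its group; without it the members' median was 0.16 beside 0.10 for all genes, and with it 0.23 beside 0.14. That library had 907 CPM of Psmc5, a cap ATPase, which was 117 of its 150 member counts.

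Some markers of other cells fell in the same contrast over both genotypes. Both plasma cell markers with rows were called, Jchain at -3.11 ± 0.43 and Sdc1 at -4.54 ± 1.25 on the log2 scale (SE, adjusted p = 5.08e-06 and 0.0410). Of 7 plasmacytoid dendritic cell markers 6 were lower and 4 were called (Ccr9, Cox6a2, Lifr and Pltp, from -7.12 to -3.16), and of 9 natural killer and T cell markers 7 were lower and Cd4 was called, at -3.65. Of the macrophage and monocyte markers, 10 were tested and had negative values, with Cd68 called at -2.85. SCAP cKO CCR6-CD69- replicate 1 and WT CCR6-CD69- replicate 2 stood apart, with 55881 and 40604 CPM summed over 12 such markers. The other libraries of these groups ran from 1959 CPM in SCAP cKO and from 1274 CPM in WT, and CCR6+CD69+ libraries held 267 to 3949 CPM in SCAP cKO and 619.9 to 4320.2 CPM in WT. Without those 2 libraries the members' median was 0.30, beside 0.24 for all genes. No B cell marker and none of the 5 tested granulocyte markers was called. The part of the other cell types in the members' values was not tested.

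Within single batches the members' medians stood beside those of all genes as follows. CCR6+CD69+ over CCR6-CD69- gave members' medians of 0.87 in batch 2 and 0.11 in batch 1 of SCAP cKO, beside 0.94 and -0.01 for all genes. In WT it gave 0.08 in batch 2 and 0.13 in batch 1, beside -0.01 and 0.02. CCR6+CD69+ over circulating gave -0.03 in batch 2 and 0.15 in batch 1 of SCAP cKO, beside 0.27 and 0.15 for all genes. In WT it gave 0.13 in batch 2 and 0.37 in batch 1, beside 0.08 and 0.26. CCR6-CD69- over circulating gave -0.89 in batch 2 and 0.18 in batch 1 of SCAP cKO, beside -0.19 and 0.20 for all genes. In WT it gave 0.06 in batch 2 and 0.47 in batch 1, beside 0.09 and 0.21. The widest gap between members and all genes was in SCAP cKO CCR6-CD69- over circulating in batch 2, where the smallest library is 1 of 2.

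By group, the cap sum averaged 1910.2 ± 164 CPM in SCAP cKO and 1694 ± 92.2 CPM in WT CCR6+CD69+ cells, 1806 ± 619 CPM in SCAP cKO and 1820.2 ± 186 CPM in WT CCR6-CD69- cells, and 1909 ± 438 CPM in SCAP cKO and 2025 ± 225 CPM in WT circulating cells (SD, n = 4 libraries each). SCAP cKO and WT overlapped in every population. All WT CCR6+CD69+ libraries, at up to 1784 CPM, lay below all WT circulating libraries, at 1836 CPM or more. In SCAP cKO these populations overlapped, at 1712 to 2081 CPM in CCR6+CD69+ and 1297 to 2279 CPM in circulating libraries. The sums were not tested, and how many other gene sets separate in this way was not counted.

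Against circulating cells, Psma6 and Psmd10 had the highest log2 fold changes of their parts in SCAP cKO and Psmb6 that of the constitutive beta ring in WT, and none was called by edgeR. Psma6, an alpha subunit, had 95.6 to 218 CPM in SCAP cKO CCR6+CD69+ libraries, 0 to 223 CPM in SCAP cKO CCR6-CD69- libraries and 0, 0, 20.8 and 29.2 CPM in SCAP cKO circulating libraries. The WT libraries held 82.4 to 158 CPM, 60.7 to 137 CPM and 61.9 to 107 CPM in the same populations. All 4 SCAP cKO circulating libraries lay below all 4 WT circulating ones, and SCAP cKO CCR6-CD69- replicate 4 was at 0 as well. Psma6 was named as an extreme of its part, and the share of all genes that separate in this way was not counted. SCAP cKO CCR6+CD69+ over SCAP cKO circulating, the log2 fold change of Psma6 was 3.52 ± 1.16 (SE, adjusted p = 0.138). It was 3.75 (adjusted p = 0.0190) in a fit without the 2 libraries under 500000 counts, neither of which is in these groups. That fit called 213 of 6993 genes in this comparison, against 104 of 6779 in the main fit. SCAP cKO over WT in circulating cells, the log2 fold change of Psma6 was -2.64 ± 1.15 (SE, adjusted p = 0.431). DESeq2 called Psma6 in both comparisons.

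Psmd10, also called gankyrin, is an assembly chaperone of the cap. It had 8.61 to 156 CPM in SCAP cKO and 21.7 to 52.7 CPM in WT CCR6+CD69+ cells. In circulating cells it had 0 to 8.77 CPM in SCAP cKO and 0 to 20.3 CPM in WT. CCR6+CD69+ over circulating, averaged over genotypes, the log2 fold change was 3.04 ± 1.10 (SE, adjusted p = 0.0951). Psmd10 passed the threshold without WT circulating replicate 4, which at 20.3 CPM was the highest of the circulating libraries for this gene. The catalytic subunit Psmb6 had 45.6 to 104 CPM in WT CCR6+CD69+ cells and 1.73 to 13.8 CPM in WT circulating cells, without overlap (log2 fold change 3.09 ± 1.33, SE, adjusted p = 0.314). Psmb6 too was named as an extreme, and the share of all genes without overlap here was not counted. In SCAP cKO the ranges of Psmb6 overlapped, at 1.92 to 71.0 CPM in CCR6+CD69+ and 18.1 to 173 CPM in circulating cells.

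Markers of several cell types differed in CCR6+CD69+ against circulating cells. Over both genotypes, of 5 B cell markers Ms4a1 and Bank1 rose, by 1.17 and 1.43 on the log2 scale. All 9 natural killer and T cell markers were lower, with 6 called, and all 7 plasmacytoid dendritic cell markers, with 6 called. Jchain, Sdc1 and the monocyte marker Ccr2 were called at -2.85, -5.87 and -5.41. Ccr2 was the only macrophage and monocyte marker called. The summed level of those markers overlapped, at 267 to 3949 CPM in CCR6+CD69+ and 1173 to 6145 CPM in circulating libraries of SCAP cKO. In WT the sums were 620 to 4320 CPM and 2302 to 4420 CPM in the same order, and also overlapped. Of 16 natural killer and T cell markers 9 had rows, and their summed level was 1.0 to 115 CPM in SCAP cKO and 28.3 to 60.8 CPM in WT CCR6+CD69+ libraries, 15.5 to 342 CPM in SCAP cKO and 85.3 to 246 CPM in WT CCR6-CD69- libraries, and 1309 to 3453 CPM in SCAP cKO and 1212 to 2715 CPM in WT circulating libraries. Nkg7, a cytotoxic granule protein, was at 0 in 7 of 24 libraries, all of them from lung CCR6+CD69+ or CCR6-CD69- cells. Of 11 plasmacytoid dendritic cell markers 7 had rows, at 1950.4 to 2626 CPM in SCAP cKO and 2004 to 2657 CPM in WT CCR6+CD69+ libraries, 3007 to 6791 CPM in SCAP cKO and 3181 to 3657 CPM in WT CCR6-CD69- libraries, and 6795 to 9357 CPM in SCAP cKO and 5683 to 7896 CPM in WT circulating libraries. Irf8, a transcription factor that B cells also express, induces immunoproteasome genes and is 1 of the plasmacytoid markers. It fell by 2.20 on the log2 scale in CCR6+CD69+ against circulating cells over both genotypes (adjusted p = 8.35e-09). Psmb9 and Psmb10 were at 0.10 and -0.08 in that comparison. The part of these other cells in the members' differences was not tested.

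By genotype, SCAP cKO against WT, no member was called in CCR6+CD69+ (0% of all genes), CCR6-CD69- (0%) or circulating cells (0%), or in the mean of the populations (0.118%). At an unadjusted p below 0.05 there were 1 member in CCR6+CD69+ (all genes 2.29%), 2 in CCR6-CD69- (7.32%), 4 in circulating cells (10.2%) and 2 in the mean (7.41%). DESeq2 called 0 in CCR6+CD69+ (all genes 0.0738%), 1 in CCR6-CD69- (1.06%), 1 in circulating cells (3.33%) and 0 in the mean (1.03%). As 1 of 34 is 2.94%, these counts are near the shares of all genes. In CCR6+CD69+ cells the core and cap medians were 0.25 and 0.26, beside 0.04 for all genes. In CCR6-CD69- cells they were -0.29 and -0.06, beside -0.31. In circulating cells they were 0.72 and 0.40, beside 0.16. Intervals were wide: for Psmb9, SCAP cKO over WT averaged over populations was 0.02 with a 95% interval of -0.67 to 0.71, and for Psmb1 it was -0.01 with an interval of -0.74 to 0.71.

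Within batches the genotype medians of the 34 members lay above those of all genes. SCAP cKO against WT in batch 1 alone they were 0.42 in CCR6+CD69+, 0.25 in CCR6-CD69- and 0.60 in circulating cells, beside 0.10, 0.15 and 0.33 for all genes. In batch 2 alone they were 0.06, -0.67 and 0.09 in the same order, beside -0.01, -1.18 and -0.08. In CCR6-CD69- cells, with both batches, the members' median was -0.12 beside -0.31 for all genes, and 0.19 beside -0.16 without SCAP cKO CCR6-CD69- replicate 4. No member was called in any single-batch fit. The genotype effect in CCR6+CD69+ cells minus that in CCR6-CD69- cells, and minus that in circulating cells, gave 0 called members (0% of all genes in both). At an unadjusted p below 0.05 these 2 differences gave 0 and 2 members (3.47% and 5.41% of all genes), and DESeq2 called 0 and 1 (0.0885% and 0.443%).

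**Figure D5:**
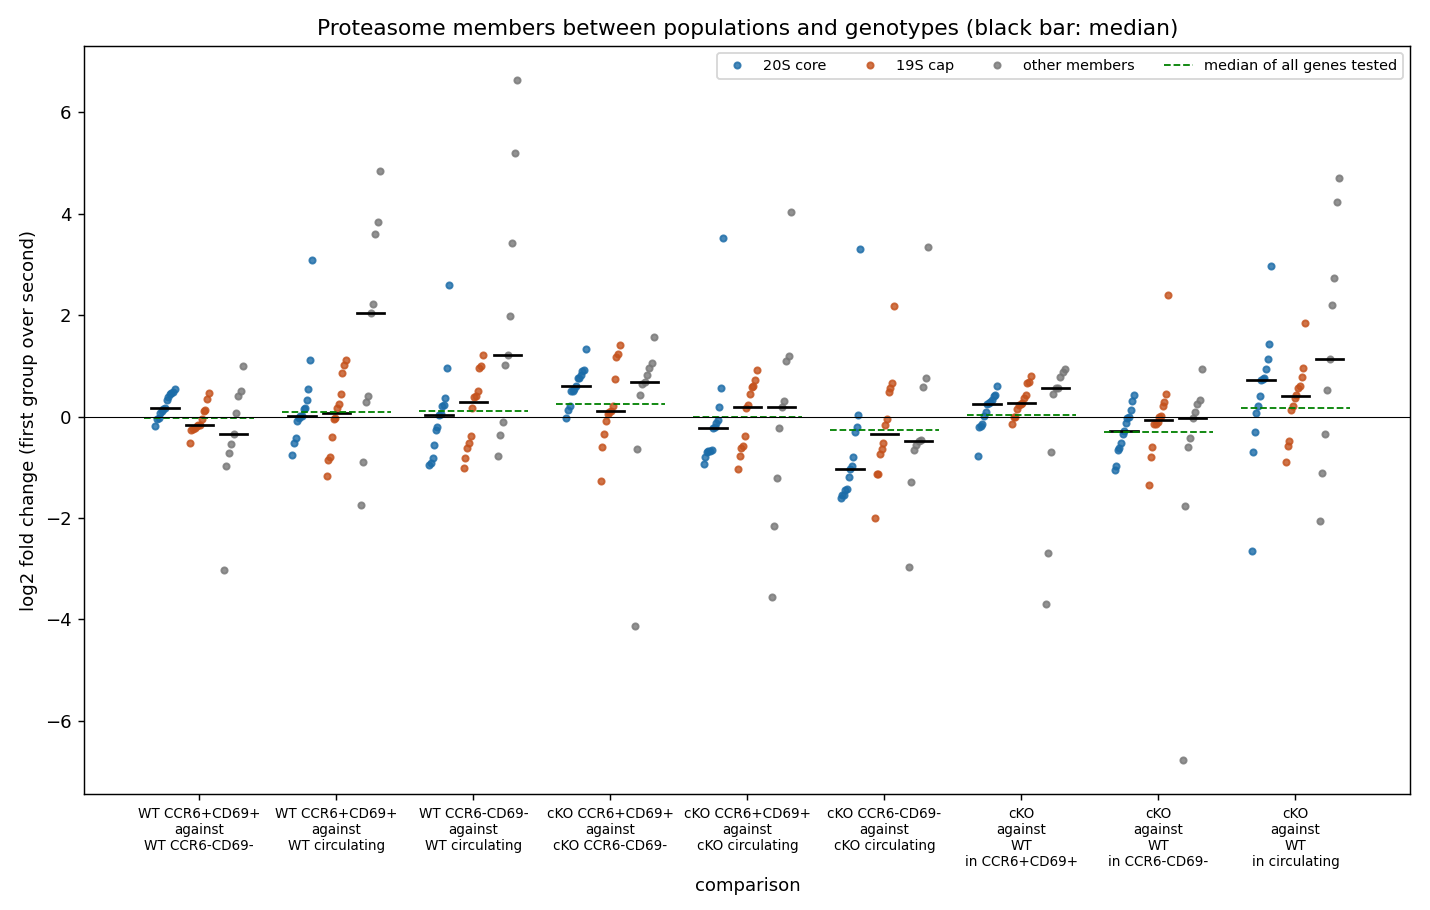
Points are the log2 fold changes of the 34 tested members in the 9 comparisons within a genotype or a population, split into 20S core, 19S cap and other members; black bars are medians and green dashed lines the median of all genes tested. None of the points passed the adjusted p of 0.05, and the core medians run from -1.04 (SCAP cKO CCR6-CD69- over SCAP cKO circulating) to 0.72 (SCAP cKO over WT in circulating cells).

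The exchange of constitutive for interferon-inducible catalytic subunits was described as the log2 ratio of counts within a library, for libraries with 10 or more counts of both genes. Psmb9 over Psmb6 was 1.49 to 4.48 in 3 SCAP cKO and 1.17 to 2.34 in 4 WT CCR6+CD69+ libraries, 2.22 to 3.55 in 2 SCAP cKO and 0.12 to 3.22 in 4 WT CCR6-CD69- libraries, and 1.54 to 3.30 in 4 SCAP cKO and 1.92 and 6.08 in 2 WT circulating libraries. Psmb9 has the longer transcript (1352 nt against 798 nt for Psmb6), so these ratios of counts are not ratios of levels. Per length, Psmb9 exceeded Psmb6 in 18 of 19 libraries, and the exception was WT CCR6-CD69- replicate 2, at -0.64 on the log2 scale. The libraries left out of this pair all had under 10 counts of Psmb6, so high ratios can be missing from these ranges. Psmb10 over Psmb7 was 0.58 ± 0.29 in 4 SCAP cKO and 0.21 ± 0.57 in 4 WT CCR6+CD69+ libraries (SD), and ranged from -3.37 to 4.00 over 22 libraries of all groups. Per length, Psmb10 exceeded Psmb7 in 12 of these 22 libraries, with a median log2 ratio of 0.06. The ratios overlapped between genotypes in every population.

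The subunits behind these ratios are given by group. Psmb6, the caspase-like subunit, had 0 to 105 CPM in SCAP cKO and 20.3 to 150.0 CPM in WT CCR6-CD69- cells. Psmb7, the trypsin-like subunit, had 50.8 to 128 CPM in SCAP cKO and 51.3 to 147 CPM in WT CCR6+CD69+ cells, 0 to 172 CPM in SCAP cKO and 57.1 to 128 CPM in WT CCR6-CD69- cells, and 0 to 279.9 CPM in SCAP cKO and 55.0 to 119 CPM in WT circulating cells. Psmb10 had 92.4 to 179 CPM in SCAP cKO and 75.2 to 183 CPM in WT CCR6+CD69+ cells, 0 to 197 CPM in SCAP cKO and 48.8 to 153 CPM in WT CCR6-CD69- cells, and 21.4 to 395 CPM in SCAP cKO and 15.0 to 158 CPM in WT circulating cells. The ranges of both genes overlapped between genotypes and between populations.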

How the data were processed

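The table the authors deposited holds whole-number counts, with gene symbols as rows and a column for each library. FastQC, STAR, Salmon and build mm39 appear, with no versions, per the submitters' processing notes; which tool made the counts is not given in the sources used here. From these counts, CPM were computed over the rows analysed. Differences were tested in R 4.3.3 with edgeR 4.0.16 (TMM scaling, filterByExpr by group, robust quasi-likelihood F-test) in 1 fit of all 24 libraries with group and batch terms. Benjamini-Hochberg adjustment ran over 6779 genes in each of 16 comparisons, with 0.05 as the threshold. The test was checked on simulated counts. DESeq2 1.42.0, other scaling, no filter, no batch term, single batches, the replicate number as a block, subsets and leaving out each library were alternatives.

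Members, gene lists, tests and the rule for named genes were chosen with earlier results of these data known. Values per library were given for called members and catalytic subunits; the highest and lowest member of a part could be named. Limits of 3 counts cover counting error only. Transcript lengths came from GENCODE M21 (GRCm38), used for lengths alone. The longest transcript marked as principal was taken for each gene, or the longest of all where none was marked. Some genes of the lists are not reported here.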

Additional observations from a re-analysis of the deposited data

Results flagged for a closer look

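In 8 of 72 sets of 4 libraries, the highest library stood apart from the other three by Dixon's 95% criterion. Each set was 1 member, or the core or cap sum, in 1 group, and all 8 were sets of a member. Chance gives about 1 in 20 where the 4 libraries are alike, but each set holds 2 libraries of each batch, and Psmb1, Psmb9 and Psmg3 were called between batches, so that share is no guide here. SCAP cKO circulating replicate 2 stood high for Psmb1 (1000.4 CPM), Psmb6 (173 CPM) and Psmb9 (505 CPM). WT CCR6-CD69- replicate 1 stood high for Psmb9 (666 CPM) and Psmb10 (153 CPM). Psmg3, a sparse gene, gave the remaining 3: 59.2 CPM in SCAP cKO circulating replicate 1, 42.6 CPM in WT CCR6-CD69- replicate 2 and 1.77 CPM in WT circulating replicate 1, where the other three libraries were at 0. All 8 are batch 1 libraries.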

How the results depend on the processing

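Psmb1 and Psmb9 stayed past the threshold between batches in 29 of 29 alternatives (log2 fold changes -2.17 to -1.86 and -2.04 to -1.76). With 1 library left out, Psma7 was called in 11, Psma3 in 8 and Psmg3 in 6 of 24 fits, and the number of called members ran from 2 to 7: it was 2 or 3 without any 1 of the 4 WT or 4 SCAP cKO CCR6+CD69+ libraries, circulating replicate 1, 3 or 4 of either genotype, WT CCR6-CD69- replicate 4 or SCAP cKO CCR6-CD69- replicate 2. Without the filter on low counts 2 were called, and DESeq2 called 10. Without the 2 libraries in which the macrophage gene Chil3 leads, an alternative chosen after seeing the data, 4 were called between batches. Between groups, called members under DESeq2 were 1 (WT CCR6+CD69+ against circulating), 2 (the same in SCAP cKO), 3 (SCAP cKO CCR6-CD69- against circulating), 1 and 1 (SCAP cKO against WT in CCR6-CD69- and in circulating cells), 2 and 2 (CCR6+CD69+ and CCR6-CD69- against circulating over both genotypes) and 1 (the genotype effect in CCR6+CD69+ minus that in circulating cells). The report gives the share of all genes beside each. Without the 2 libraries under 500000 counts 1 was called (Psma6, SCAP cKO CCR6+CD69+ against circulating). Neither of those libraries is in the groups of that comparison. Leaving out 1 library gave 0 to 1 for CCR6+CD69+ against circulating over both genotypes (1 without WT circulating replicate 4) and 0 in the other 14 group comparisons. The causes were not tested, and p-values hold for these 24 libraries only. DESeq2 size factors moved the median of all genes by up to 0.26 (log2) in comparisons with SCAP cKO CCR6-CD69- cells. Over 60 pairs of same-numbered libraries, r was -0.23 to 0.07 after group and batch. These pairs include libraries of different genotypes, and removing group and batch itself lowers r. The check therefore cannot tell whether the numbers pair the samples. With the replicate block 0 members were called in all 15 group comparisons.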
